A study of Homo sapiens with 12 samples.

Results

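Gene deserts are long stretches of the genome that hold no start site of a protein-coding gene. Here a region was placed in a gene desert when it lay on chromosomes 1 to 22 with its midpoint more than 200 kb from the transcription start site (TSS) of every protein-coding gene in GENCODE release 44, on hg38. By that rule 13460 of the 158028 listed regions were desert regions, 5631 for H2A.Z and 7829 for acetylated H2A.Z (H2A.Zac). The rule used position only, so the direction and size of change did not enter it. These regions were chosen with earlier results of these data known. The region just inside the 200-kb line, 200.1 kb from MAF, was gained for H2A.Zac with a log10 likelihood ratio of 12.7, and the region just outside it, in FRY, was lost for H2A.Z with a ratio of 3.53.

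The regions came from ChIP-seq in K562, a human leukemia cell line with erythroid and megakaryocytic features, labelled lymphoblast. In every sample the endogenous EP400 carried a degradation tag (EP400-dTAG) and was depleted with 500 nM dTAGV-1 for 24 h, and the cells expressed exogenous EP400 from a safe-harbor locus, either wild type (WT) or lacking the segment that recruits TRRAP (ΔTRRAP). Each rescue line was a single clone, so the clone and the EP400 variant cannot be told apart. H2A.Z, H2A.Zac and input were each sequenced in 2 biological replicates per line, 12 libraries in all, and the replicates had been merged before regions were compared. The deposited lists therefore give 1 value per region, a log10 likelihood ratio for the difference between WT and ΔTRRAP, without read counts or replicate values. Regions higher in WT are called lost, regions higher in ΔTRRAP gained, and the remainder unchanged. Ranges in parentheses are 95% Wilson intervals, which cover counting error only. Neighbouring regions are not independent, and no comparison below carries a test over replicates.

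H2A.Z is a histone variant that replaces H2A in nucleosomes at promoters, enhancers and boundaries of chromatin domains. EP400 is the ATPase scaffold of the TIP60 complex, which exchanges H2A.Z into nucleosomes and acetylates it through its KAT5 subunit, and TRRAP is the large subunit through which transcription factors such as MYC contact the complex. Gene deserts are known to hold long-range enhancers, often of developmental regulators, together with unannotated promoters and repeats.

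The reference sequence at the midpoint of the top-ranked desert region of the lost H2A.Zac, gained H2A.Zac and gained H2A.Z lists is shown first, to give the character of the DNA behind the largest likelihood ratios. All sequences are 300 bases of the plus strand of hg38, 5′ to 3′, in lower case, and capitals mark matches on either strand to any of 6 motifs. These were AGATAA, which GATA factors bind, TGANTCA, which AP-1 factors bind, the E-box CACGTG, a site of MYC and MAX, the ETS core CCGGAA, and the longer NFE2 and NRF1 elements. The lost region lay in the desert between IRX1 and ADAMTS16.
H2A.Zac lost, chr5:3838345-3838644: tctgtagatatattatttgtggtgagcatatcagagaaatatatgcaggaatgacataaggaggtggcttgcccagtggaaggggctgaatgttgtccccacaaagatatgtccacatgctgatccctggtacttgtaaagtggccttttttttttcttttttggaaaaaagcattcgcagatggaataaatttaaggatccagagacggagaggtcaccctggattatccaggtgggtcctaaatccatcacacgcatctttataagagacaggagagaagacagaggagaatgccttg
H2A.Zac gained, chr13:72170660-72170959: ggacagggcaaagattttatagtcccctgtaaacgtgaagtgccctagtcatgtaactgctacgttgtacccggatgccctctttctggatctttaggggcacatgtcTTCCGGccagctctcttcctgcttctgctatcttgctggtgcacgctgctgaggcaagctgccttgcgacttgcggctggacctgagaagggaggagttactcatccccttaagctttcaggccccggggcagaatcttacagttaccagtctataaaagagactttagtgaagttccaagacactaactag
H2A.Z gained, chr16:64378097-64378396: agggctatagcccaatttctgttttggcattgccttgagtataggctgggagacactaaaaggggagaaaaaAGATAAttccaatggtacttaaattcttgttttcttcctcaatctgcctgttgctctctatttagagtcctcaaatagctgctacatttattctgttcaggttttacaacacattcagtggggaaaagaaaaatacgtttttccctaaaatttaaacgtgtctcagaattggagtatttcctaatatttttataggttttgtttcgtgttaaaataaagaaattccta
The lost window, with a GC content of 42.7%, held none of the 6 motifs. The gained H2A.Zac window had a GC content of 51.0% and 1 ETS match, and the gained H2A.Z window had a GC content of 34.3% and 1 GATA match.

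Among desert H2A.Z regions 1114 were lost, 1101 gained and 3416 unchanged. Among desert H2A.Zac regions 2048 were lost, 2308 gained and 3473 unchanged. Over all regions of chromosomes 1 to 22, 20.1% of H2A.Z regions were lost and 14.0% gained, while 26.1% of H2A.Zac regions were lost and 26.2% gained. In deserts the lost share was close to that background, at 19.8% for H2A.Z and 26.2% for H2A.Zac, and the gained share was above it, at 19.6% and 29.5%. Of the changed desert regions, 49.7% of H2A.Z (47.6% to 51.8%) and 53.0% of H2A.Zac (51.5% to 54.5%) were gained. Distal regions 10 to 200 kb from a TSS had gained shares of 34.8% (33.9% to 35.7%) and 45.5% (44.9% to 46.1%). The contrast was smaller between neighbouring distances. At 50 to 200 kb the shares were 41.0% (39.6% to 42.4%) and 49.1%, and at 200 to 500 kb, where most desert regions lay, they were 44.4% (41.8% to 47.1%) and 49.6% (47.7% to 51.5%), the interval for H2A.Zac including the share at 50 to 200 kb.

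The gained share did not follow distance in one direction. It was highest within 1 kb of a TSS, at 66.5% for H2A.Z and 70.3% for H2A.Zac, and fell to 30.2% and 42.8% at 10 to 50 kb. From there it was higher in each step outward to 500 to 1000 kb, where it reached 62.7% (58.5% to 66.6%) for H2A.Z and 60.1% (57.0% to 63.1%) for H2A.Zac. Beyond 1000 kb the shares were 50.3% (44.8% to 55.8%) and 56.7% (52.8% to 60.5%).

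**Figure D1:**
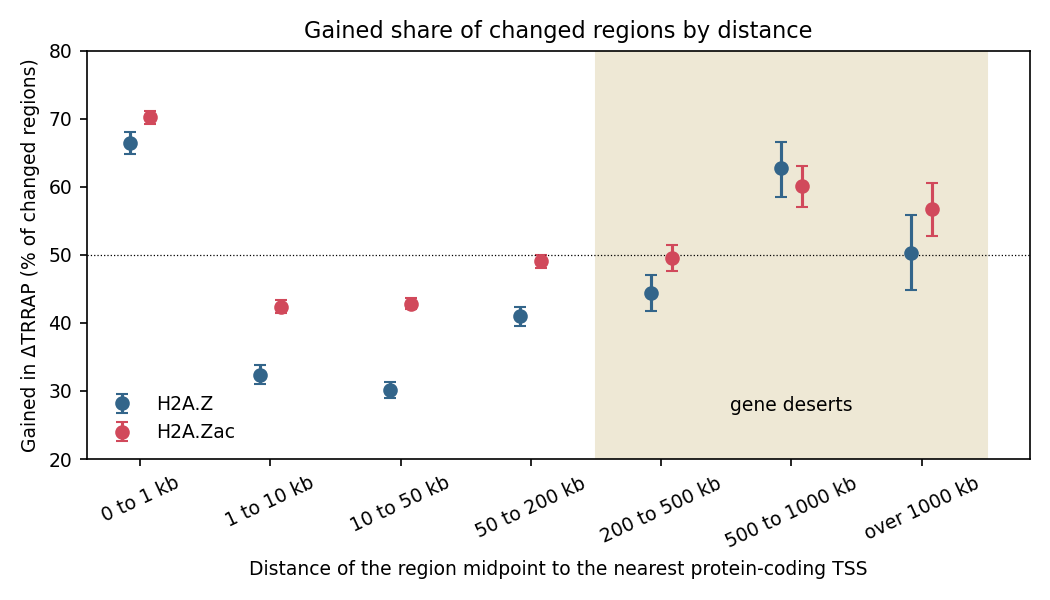
Share of changed regions that were gained in ΔTRRAP (vertical axis, percent) in 7 classes of distance to the nearest protein-coding TSS (horizontal axis), with 95% Wilson intervals as bars. Both marks are lowest between 1 and 50 kb and rise to 62.7% (H2A.Z) and 60.1% (H2A.Zac) at 500 to 1000 kb.

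The contrast with distal regions held within most chromosomes and narrowed within smaller windows. Within the same chromosome, the desert gained share exceeded that of regions at 10 to 200 kb on 20 of 22 chromosomes for H2A.Z and on 17 of 22 for H2A.Zac. For H2A.Z it ran from 12.5% on chromosome 20 to 81.5% on chromosome 16, and for H2A.Zac from 29.3% on chromosome 20 to 72.2% on chromosome 22. Within windows of 5 Mb that held at least 10 changed regions of each kind, however, the desert and distal shares of H2A.Zac were 52.5% and 51.5% over 129 windows, and deserts were higher in 65 of them. For H2A.Z they were 44.2% and 39.5% over 51 windows, with deserts higher in 24. These windows held 2777 of the changed H2A.Zac and 909 of the changed H2A.Z desert regions.

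**Figure D2:**
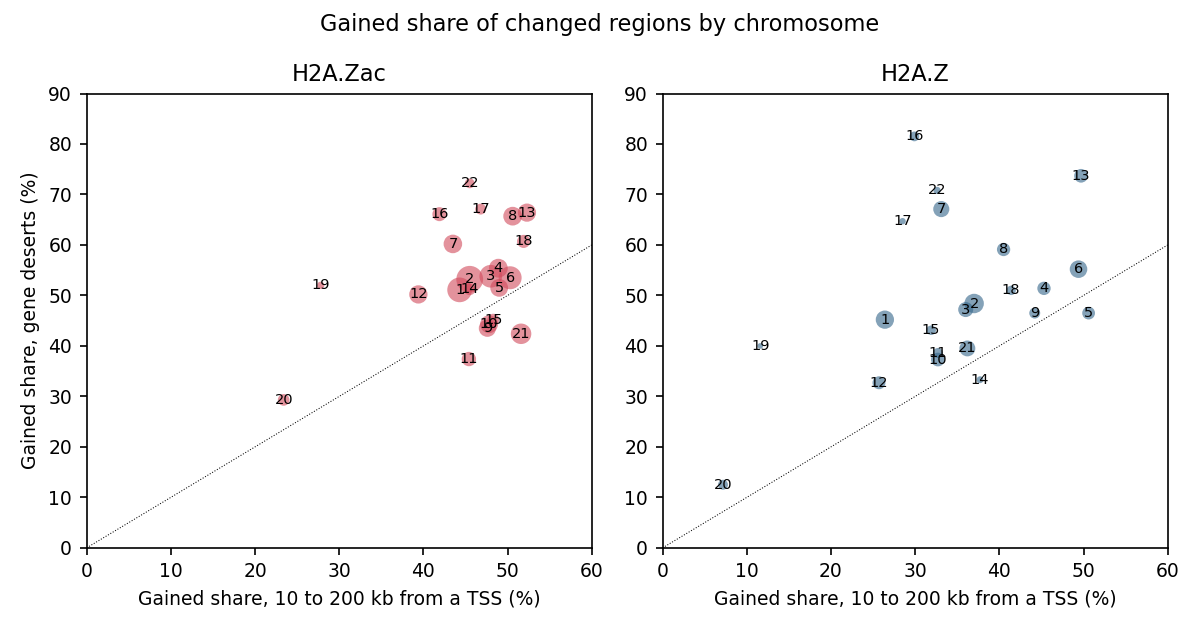
Gained share of changed regions in gene deserts (vertical axis, percent) against that of regions 10 to 200 kb from a TSS (horizontal axis, percent) on each of the 22 chromosomes, which are numbered; point area grows with the number of changed desert regions and the dotted line marks equal shares. Most chromosomes lie above the line, 17 for H2A.Zac and 20 for H2A.Z, and chromosome 20 is lowest for both marks.

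Deserts held more of the strongest changes than of the weak ones. Desert regions made up 9.66% of all gained H2A.Zac regions, 24.1% of those scoring 20 or more on that log10 ratio (22.2% to 26.1%) and 41.7% of those scoring 50 or more, which is 108 of 259 regions (35.9% to 47.8%). Among lost H2A.Zac regions the corresponding shares were 8.61%, 13.0% and 23.2%, the last being 43 of 185 regions (17.7% to 29.8%). For gained H2A.Z the desert share was 12.7% of the list and 36.0% at a ratio of at least 20, or 32 of 89 regions (26.8% to 46.3%). For lost H2A.Z it was 8.98% and 18.4%, or 14 of 76 (11.3% to 28.6%). The most changed region of chromosomes 1 to 22 was a desert region for both lost and gained H2A.Zac.

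Seen from the deserts, 19.8% of gained (18.2% to 21.4%) and 16.8% of lost H2A.Zac regions (15.3% to 18.5%) reached a ratio of 20. At 10 to 200 kb 10.2% and 12.3% did so, and within 1 kb of a TSS 1.83% and 6.32%. The contrast was smaller between neighbouring distances. At 50 to 200 kb the shares were 12.5% of gained and 13.0% of lost regions. At 200 to 500 kb they were 15.5% (13.6% to 17.5%) and 17.0% (15.1% to 19.1%). They were 26.2% and 18.3% at 500 to 1000 kb, and 25.4% and 13.9% beyond 1000 kb. A likelihood ratio depends on the signal in a region as well as on the fold, and wider regions reached 20 more often. The contrast with regions at 10 to 200 kb was present in both width classes. Among regions under 1 kb wide the desert shares were 11.9% for gained and 10.4% for lost, against 4.39% and 5.77% at 10 to 200 kb, and among wider regions they were 34.0% and 31.5% against 21.7% and 25.8%. In 57 windows of 5 Mb the pooled share for gained regions was 23.4% in deserts and 12.6% outside, while deserts were higher in 28 of the 57. For lost regions the shares were 16.8% and 13.8% over 49 windows, with deserts higher in 23. By chromosome, the desert share was higher than that at 10 to 200 kb on 12 of 22 for lost and on 17 of 22 for gained H2A.Zac. For H2A.Z few regions reached 20, namely 1.26% of lost and 2.91% of gained desert regions, against 0.782% and 1.19% from 10 to 200 kb of the same chromosomes. The H2A.Z desert share was higher on 5 and 8 of the 22 chromosomes.

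**Figure D3:**
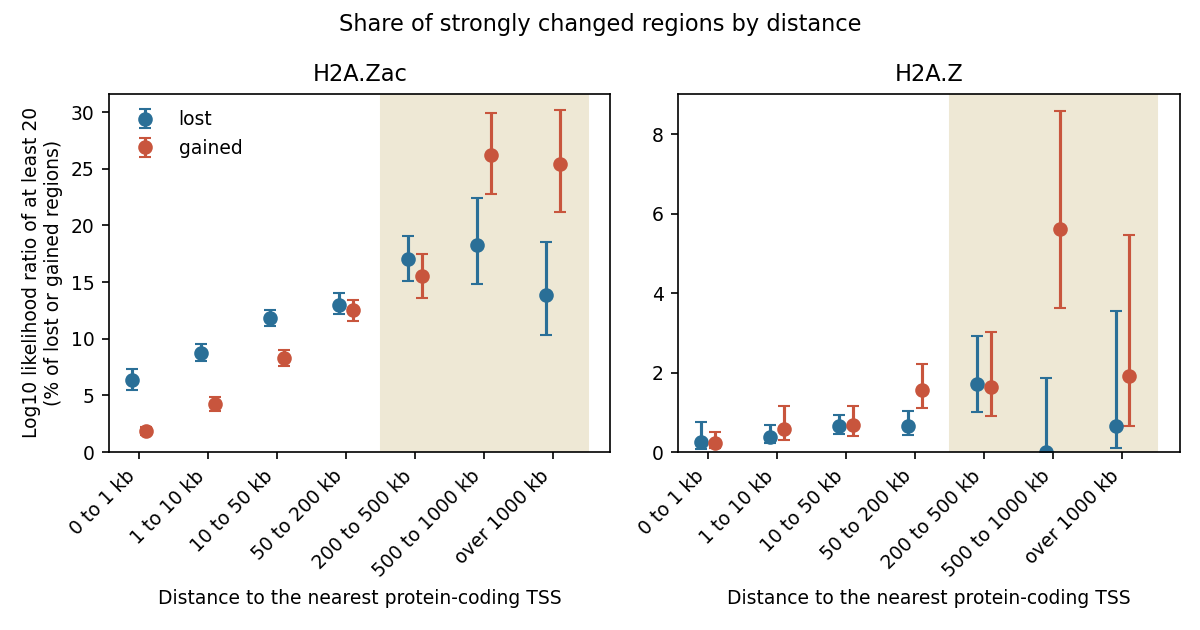
Percent of lost and of gained regions whose log10 likelihood ratio reached 20 (vertical axes, which differ between marks) by distance to the nearest protein-coding TSS, with 95% Wilson intervals. For gained H2A.Zac the share rises from 1.83% within 1 kb to 26.2% at 500 to 1000 kb.

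The 3 strongest H2A.Zac losses in deserts sat in 1 cluster. The desert between IRX1, a homeobox transcription factor, and ADAMTS16, a secreted metalloprotease, was 1.14 Mb long and held 16 regions, 10 of H2A.Z and 6 of H2A.Zac, and all 16 were lost. Its H2A.Zac region at chr5:3837441-3839548, 243 kb from the IRX1 TSS and outside every annotated gene, had a log10 likelihood ratio of 188, the largest in the lost H2A.Zac list. Another, at chr5:3821959-3823648, had 127. The H2A.Z ratios of the cluster were smaller, between 14.7 and 31.1. In the 500 kb on each side of this desert, all 14 changed H2A.Zac and all 14 changed H2A.Z regions were lost as well, so the loss ran on across the 200-kb line.

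Other strong losses lay in deserts on chromosomes 1, 3, 13 and 20. A region in an intron of LRRC7, a postsynaptic density protein, at chr1:69822006-69823308 had a lost H2A.Zac ratio of 115 and a lost H2A.Z ratio of 25.6. All 10 changed H2A.Zac and all 8 changed H2A.Z regions of that desert were lost. A GC-rich region between LMO7 and KCTD12 at chr13:76189851-76190620, with a GC content of 64.0%, had a lost H2A.Zac ratio of 96.1. Between FAM43A and XXYLT1, the region at chr3:195002668-195004296 had a lost H2A.Z ratio of 29.3 and a lost H2A.Zac ratio of 91.5. In the 500 kb on each side of that desert 2 of 37 changed H2A.Zac regions and none of 20 changed H2A.Z regions were gained. The H2A.Z region with the third-highest lost ratio in deserts, 28.4, ranked 14 in the whole list. It was at chr20:29444888-29445351 in the desert between ZNF337 and DEFB115, which spans the centromere of chromosome 20.

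The strongest gains were spread over several deserts. The top gained H2A.Zac region, at chr13:72170322-72171297, lay 304 kb from the TSS of DACH1, a transcriptional cofactor of development, with a ratio of 126 for H2A.Zac and 15.7 for H2A.Z. The second, at chr2:83694704-83695827, lay 765 kb from SUCLG1, with ratios of 122 and 16.4. The third among desert regions, at chr2:185949468-185952095, ranked 5 in the whole list. It overlapped an exon of a long non-coding RNA, ENSG00000287129, and had ratios of 107 and 28.1. All changed regions within 50 kb of these 3 were gained. The gained H2A.Z region at chr6:146885464-146886567, between ADGB and STXBP5, with a ratio of 29.4, had mixed surroundings instead. Within 50 kb of it 11 H2A.Zac regions were gained and 6 lost, and 12 H2A.Z regions were gained and 1 lost.

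Clusters of gains extended over long distances. Between NXPH1, a secreted ligand of neurexins, and NDUFA4, a mitochondrial respiratory chain subunit, 32 of 36 changed H2A.Zac and 28 of 30 changed H2A.Z regions were gained. Within 50 kb of the region at chr7:10161649-10162747, all 19 regions of both marks were gained. The median ratio of changed H2A.Zac regions in this desert was 43.0, against 8.34 over all gained and 8.74 over all lost desert H2A.Zac regions. Between the cadherin genes CDH8 and CDH11, 7 of 9 changed H2A.Zac and all 4 changed H2A.Z regions were gained. Their top H2A.Z region, at chr16:64377150-64379344, lay in an intron of the non-coding gene ENSG00000259846, with ratios of 35.2 for H2A.Z and 81.6 for H2A.Zac.

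Some deserts changed almost wholly in a single direction. The copy number of these stretches in the 2 clones was not assessed. The rule marked out 1468 intervals on chromosomes 1 to 22, and 904 of them held a region. They covered 893 Mb, or 32.4% of the called bases, with 15.1 regions per Mb against 74.9 elsewhere. The 62 deserts with at least 50 regions held 44.3% of all desert regions. Of 116 deserts with at least 10 changed H2A.Zac regions, 22 were at least 90% gained and 15 at most 10% gained. Of 62 deserts with as many changed H2A.Z regions, the counts were 15 and 17. One-sided deserts by these limits thus made up 31.9% for H2A.Zac and 51.6% for H2A.Z. No such share is given for stretches outside deserts, so one-sidedness is not shown to be particular to deserts. Where both marks had at least 5 changed regions, the majority went the same way in 107 of 122 deserts, gained in 52 and lost in 55.

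**Figure D4:**
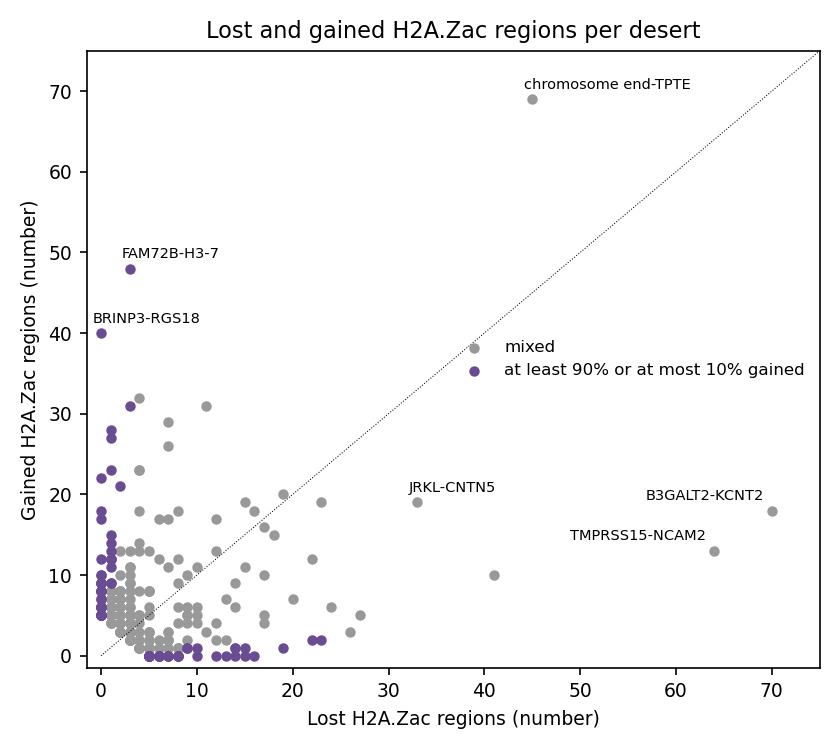
Number of gained (vertical axis) against lost (horizontal axis) H2A.Zac regions in each desert with at least 5 changed H2A.Zac regions; purple points are at least 90% or at most 10% gained. BRINP3-RGS18 lies on the vertical axis with 40 gained and none lost, and B3GALT2-KCNT2 has 70 lost and 18 gained.

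The desert between BRINP3, a gene of neural differentiation, and RGS18, a regulator of G-protein signaling in platelets, was the clearest gained case among those with the most gained H2A.Zac regions. All 40 changed H2A.Zac and 45 of 46 changed H2A.Z regions in its 1.28 Mb were gained, with H2A.Zac ratios up to 84.5. A few other one-sided deserts are named after their values were seen. Between LRRTM1, a synaptic adhesion gene, and SUCLG1, 28 of 29 changed H2A.Zac regions were gained. Between NXPH2 and LRP1B all 22 were, and between SPRY2 and SLITRK1 all 44 changed H2A.Z regions and 23 of 24 H2A.Zac regions were. KIF26B-SMYD3 had 27 gained and 1 lost H2A.Zac regions, and SPACA3-ASIC2 21 and 2. The desert from the start of chromosome 22 to OR11H1 had 31 and 3. All 72 regions of KIF26B-SMYD3 and all 61 of SPACA3-ASIC2 lay inside protein-coding genes. In KIF26B-SMYD3 9 lay within 1 kb of the TSS of another transcript. In the 500 kb flanking BRINP3-RGS18, 11 of 13 changed H2A.Zac regions were gained. Around LRRTM1-SUCLG1 6 of 8 were, around NXPH2-LRP1B 3 of 3 and next to the chromosome 22 desert 2 of 3. Around KIF26B-SMYD3, by contrast, 13 of 35 changed H2A.Zac regions were gained, around SPRY2-SLITRK1 1 of 6 and around SPACA3-ASIC2 17 of 27.

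Some deserts were as one-sided toward loss, and these too are named after their values were seen. OPA1-HES1 had 22 lost and 2 gained H2A.Zac regions, ARHGAP26-NR3C1 23 and 2, and ADCYAP1-METTL4 19 and 1. Of the 66 regions of ARHGAP26-NR3C1, 65 lay inside a protein-coding gene. In the 500 kb flanking OPA1-HES1, 3 of 56 changed H2A.Zac and none of 42 changed H2A.Z regions were gained. Around ARHGAP26-NR3C1, by contrast, 15 of 18 and 10 of 12 were gained, and around ADCYAP1-METTL4 14 of 28 and 2 of 17. The deserts with the most lost H2A.Zac regions were more mixed. Between B3GALT2, a galactosyltransferase, and KCNT2, a potassium channel, 70 H2A.Zac regions were lost and 18 gained. In its first 2 Mb the counts were 46 lost and 3 gained, and in the remainder 24 lost and 15 gained. Between TMPRSS15, the intestinal enteropeptidase, and NCAM2, a neural adhesion molecule, 64 were lost and 13 gained. There the first 0.5 Mb held 9 gained and no lost H2A.Zac regions, and the remainder 64 lost and 4 gained. In the 500 kb flanking that desert gains made up 14 of 19 changed H2A.Zac regions but 2 of 10 changed H2A.Z regions, while inside it 51 H2A.Z regions were lost and 7 gained. The direction of the flanks was thus opposite to that inside for H2A.Zac only. These split points were chosen after the values were seen. For H2A.Zac JRKL-CNTN5 also differed from its flanks, with 33 lost and 19 gained inside and 23 of 30 gained outside. CDH2-DSC3 went the other way, with 31 gained and 11 lost.

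**Figure D5:**
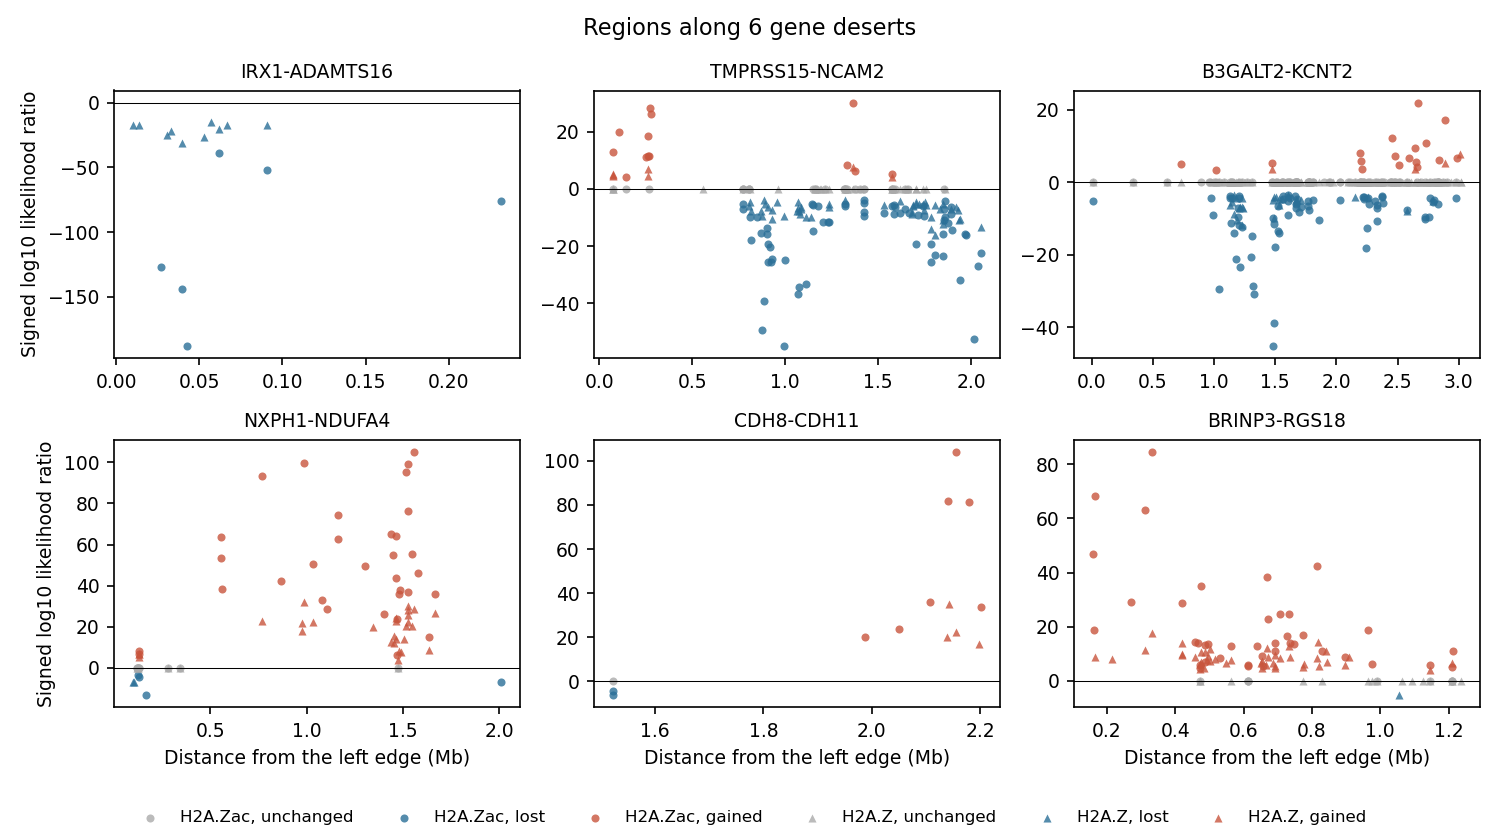
Regions along 6 deserts, with the distance from the left edge in Mb (horizontal axis) and the log10 likelihood ratio signed by direction (vertical axis, gained above 0, lost below, unchanged drawn at 0); circles are H2A.Zac and triangles H2A.Z. IRX1-ADAMTS16 holds lost regions only, BRINP3-RGS18 almost only gained ones, and TMPRSS15-NCAM2 turns from gained to lost within its first Mb.

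Deserts of repeated sequence need to be read apart. The desert with the most regions, 409, ran from the start of chromosome 21 to TPTE, and 97.3% of its regions had under 50% of their 31-base words unique in hg38. It had 69 gained and 45 lost H2A.Zac regions. The 3 changed regions farthest from a TSS, 2 of H2A.Zac and 1 of H2A.Z and all lost, were in this desert, up to 5508 kb from TPTE among genes that GENCODE types as artifacts. The desert from FAM72B to H3-7, across the centromere of chromosome 1, had 48 gained and 3 lost H2A.Zac regions, and 77.9% of its regions were of that kind. In the desert from the start of chromosome 22 to OR11H1 90.6% were. In ZNF337-DEFB115 48.7% of the 150 regions were, with 19 lost and 20 gained for H2A.Zac. Strong changes occurred in such deserts too. The changed H2A.Zac regions of FAM72B-H3-7 had a median ratio of 40.6 and ratios up to 77.1. The medians over all gained and all lost desert H2A.Zac regions were 8.34 and 8.74. Over all deserts 19.8% of regions had under 50% unique words, against 8.96% within 200 kb of a TSS. Their gained shares were 50.9% for H2A.Z and 54.7% for H2A.Zac, and those of the other desert regions 49.5% and 52.6%.

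By annotation, 3025 desert regions (22.5%) lay inside a protein-coding gene whose own TSS was far away, 4133 (30.7%) inside non-coding genes only, and 6302 (46.8%) outside every gene. The 377 genes that held them were led by RUNX1, a transcription factor of blood development, with 167 regions, of which 41 H2A.Zac regions were lost and 10 gained, and 28 H2A.Z regions lost and 4 gained. RUNX1 was followed by ZFPM2, a GATA cofactor, with 73 regions, KAZN and SOX5 with 70 each and ARHGAP26 and SMYD3 with 65 each. ZFPM2 had 6 lost and 16 gained H2A.Zac regions, ARHGAP26 22 and 2, SMYD3, a lysine methyltransferase, 0 and 24, KAZN 20 and 7, and SOX5, a SOX-family transcription factor, 8 and 11. The ARHGAP26 and SMYD3 regions were among those already counted above in ARHGAP26-NR3C1 and KIF26B-SMYD3. Only 1 TSS per gene was used, and 4113 desert regions (30.6%) lay within 200 kb of the TSS of another transcript of a protein-coding gene, 216 of them within 1 kb, including 8 of the RUNX1 regions. Genes of the list of long neuronal genes made up 54 of the 377 (14.3%), against 97 of the 845 whose bodies reached a desert (11.5%).

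Desert regions near the TSS of a non-coding gene, pseudogenes included, were mostly gained when they changed. There were 1386 desert regions (10.3%) within 1 kb of a non-coding TSS. Their gained shares were 64.4% for H2A.Z (57.1% to 71.1%) and 65.9% for H2A.Zac (61.2% to 70.2%), against 48.4% (46.3% to 50.6%) and 51.6% (50.1% to 53.2%) for the other desert regions. The strongest gained example was ENSG00000234710, a long non-coding RNA of the NXPH1-NDUFA4 desert, where H2A.Zac had a ratio of 99.7 and H2A.Z 31.9. The pseudogene DPY19L4P2 followed with 69.0 and 12.8. The remaining gained examples were the long non-coding RNAs ENSG00000278254 and ENSG00000226965, with H2A.Zac ratios of 63.9 and 58.0, and the pseudogene TERF1P5 with 51.3. The strongest lost examples were at the pseudogene RARRES2P11, with an H2A.Zac ratio of 94.5, at RN7SL538P inside LRRC7, with 67.3, and at ENSG00000285354, a long non-coding RNA 363 kb from the oncogene MYCN, with 53.7. ENSG00000235056 and ENSG00000232444 followed with 47.2 and 34.9. The RARRES2P11 region lay in the ZNF337-DEFB115 desert and had 66.7% unique words, and the TERF1P5 region had 43.1%.

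Deserts next to developmental regulators were not the most gained. Of the 904 deserts with a region, 11.6% had a flanking gene on the list of developmental regulators (9.69% to 13.9%), against 6.21% of the 564 without one (4.50% to 8.51%). The deserts with regions were also longer, with medians of 0.436 and 0.140 Mb. In deserts flanked by such a gene the gained share of changed H2A.Z regions was 39.8% (34.7% to 45.2%), and in other deserts 51.5% (49.2% to 53.7%). For H2A.Zac the shares were 51.4% (47.5% to 55.3%) and 53.3% (51.6% to 54.9%), whose intervals overlap.

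Where both marks changed at the same place, they changed in the same direction. Of 2215 changed desert H2A.Z regions, 1303 were covered by changed H2A.Zac, and of 4356 changed desert H2A.Zac regions, 1074 were covered by changed H2A.Z. Of the 1303 changed desert H2A.Z regions that a changed H2A.Zac region covered by at least 25%, 1300 had the same direction, and of the 1074 changed desert H2A.Zac regions covered by changed H2A.Z, 1071 did. At 10 to 200 kb the counts were 7329 of 7334 and 6005 of 6010. Both marks were scored between the same 2 lines. Overlap with any region of the other mark was 72.0% for desert H2A.Z (70.9% to 73.2%) and 52.6% for desert H2A.Zac (51.5% to 53.7%), against 77.8% and 53.5% at 10 to 200 kb. Among lost H2A.Zac desert regions 32.4% were covered by unchanged H2A.Z, and among gained ones 29.8%, while 50.3% and 53.2% were covered by no H2A.Z region of any class. At 10 to 200 kb the uncovered shares were 47.4% and 52.8%, and over all regions of chromosomes 1 to 22 they were 44.6% and 42.7%, with 36.7% of lost and 46.1% of gained H2A.Zac regions covered by unchanged H2A.Z.

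The sequence of lost and gained desert regions differed. The median GC content was 47.1% for lost and 43.0% for gained H2A.Z, and 45.5% and 43.1% for H2A.Zac. The E-box CACGTG, searched on both strands in the 300 bases around the midpoint, was present in 7.62% of lost (6.55% to 8.85%) and 2.51% of gained (1.95% to 3.23%) H2A.Zac desert regions, with 4.72% in unchanged ones and 5.69% over all regions of chromosomes 1 to 22. The order held in 3 classes of window GC content, at 3.56% and 0.850% under 40% GC, 8.78% and 3.40% from 40% to 50%, and 8.74% and 3.03% from 50% upward. It was not particular to deserts, since at 10 to 200 kb the shares were 8.83% and 2.90%. For H2A.Z the desert shares were 4.85% (3.73% to 6.27%) and 2.63% (1.84% to 3.76%).

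The GATA motif AGATAA went the other way, in 17.5% of lost (15.9% to 19.2%) and 20.9% of gained (19.3% to 22.6%) H2A.Zac desert regions, with 18.0% over all desert regions and 14.0% over all regions. At 10 to 200 kb the H2A.Zac shares were 14.1% and 20.5%. Within GC classes the desert H2A.Zac shares were closer, for example 19.2% and 20.7% from 40% to 50% GC. For H2A.Z the desert shares were 15.6% of lost (13.6% to 17.9%) and 20.8% of gained (18.5% to 23.3%) regions, and from 40% to 50% GC the gap did not narrow, with GATA in 90 of 521 lost and 106 of 461 gained regions. In the other GC classes the H2A.Z shares were 26.5% and 27.7% under 40% GC and 9.37% and 8.48% from 50% upward. AP-1 was found in 9.62% of lost and 11.9% of gained H2A.Zac desert regions, ETS in 5.42% and 5.37%, and the NFE2 element, which contains an AP-1 match, in 0.146% (0.0498% to 0.430%) and 1.04% (0.700% to 1.54%), which is 3 and 24 regions. At 10 to 200 kb the NFE2 shares were 0.202% and 1.26%, and over all regions of chromosomes 1 to 22 0.198% and 0.854%. NRF1 was found in 63 desert regions (0.468%), 45 of them among those with under 50% unique words, against 0.240% of all regions. CCCTC, the 5 letters of the CTCF core, was in 51.3% of desert windows and 61.6% of all windows. The window of the strongest lost H2A.Zac desert region with an E-box, and of the strongest gained one with a GATA match, among regions outside exons with at least 50% unique words, shows each motif in place. The first lies between MYCN and CYRIA, the second between NXPH1 and NDUFA4, and both were chosen after the motif shares were seen.
H2A.Zac lost with an E-box, chr2:16302949-16303248: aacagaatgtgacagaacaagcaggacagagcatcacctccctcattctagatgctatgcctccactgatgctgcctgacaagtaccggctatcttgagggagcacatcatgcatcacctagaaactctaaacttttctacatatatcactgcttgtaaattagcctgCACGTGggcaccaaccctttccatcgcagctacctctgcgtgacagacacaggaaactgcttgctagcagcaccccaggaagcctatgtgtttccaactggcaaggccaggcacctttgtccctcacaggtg
H2A.Zac gained with a GATA match, chr7:10159151-10159450: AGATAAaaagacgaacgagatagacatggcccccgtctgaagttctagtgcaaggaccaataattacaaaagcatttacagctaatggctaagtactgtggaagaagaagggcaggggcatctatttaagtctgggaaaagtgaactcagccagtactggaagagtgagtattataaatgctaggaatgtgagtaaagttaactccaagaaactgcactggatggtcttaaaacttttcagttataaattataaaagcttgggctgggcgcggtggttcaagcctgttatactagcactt
The regions around these windows had log10 likelihood ratios of 53.7 and 99.4. A match is a stretch of letters and says nothing about binding in these cells.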

How the data were processed

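Per the study's methods and the submitters' processing notes, the authors aligned reads to hg38 with Bowtie2 2.4.5, merged the replicates, and compared WT with ΔTRRAP with MACS2 2.2.7.1, scaling by effective depth and keeping regions supported by peaks reproducible between replicates. The deposited lists, 3 per mark, give for each region a score, the log10 likelihood ratio of the difference. The smallest score of a changed list was 3.10 and the largest of an unchanged list 2.90. No mapping-quality filter is stated, so repeats may hold multiply aligned reads. Depth per library is unknown from these lists.

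The 6 lists were annotated with GENCODE release 44, using the 5′ end of each protein-coding gene as its TSS. Coverage by the other mark counted from 25% of a region. Sequence uniqueness was the share of a region's 31-base words, taken every 25 bases, found once in hg38. Shares carry 95% Wilson intervals (scipy 1.17.1) and were also computed leaving out each chromosome. Distance, coverage and uniqueness steps were checked against brute force, bedtools 2.31.1 and planted repeats. Named items were the 5 top regions of each changed list and the deserts with the most regions or changed H2A.Zac regions. Others were the 5 genes with most desert regions, ties included, the 5 top non-coding TSSs per direction and the 3 farthest changed regions. The members, lists and motifs were chosen with earlier results of these data known. Input libraries were not used here. The sequence of the top lost H2A.Z desert region is not reported here.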

Additional observations from a re-analysis of the deposited data

Results flagged for a closer look

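Chromosome X lay outside the comparisons and also held regions more than 200 kb from every protein-coding TSS. There were 87 H2A.Z regions of this kind, 12 lost and 7 gained, with a gained share of 36.8% (19.1% to 59.0%). There were 213 H2A.Zac regions, 41 lost and 55 gained, with a gained share of 57.3% (47.3% to 66.7%). Both intervals include the gained shares of the deserts on chromosomes 1 to 22. The changed shares on chromosome X were lower, at 21.8% (14.5% to 31.6%) for H2A.Z and 45.1% (38.5% to 51.8%) for H2A.Zac, against 39.3% and 55.6%. No rule for outlying samples could be applied, since the lists hold no value per sample.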

How the results depend on the processing

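No paired analysis was possible because the lists hold 1 value per region from merged replicates, and for the same reason no replicate could be left out. The limit on soft-masked sequence could not be run, since the reference sequence carried no masking; uniqueness of 31-base words took its place, chosen after seeing the data, as were the limits on large deserts. Of 114 alternatives 58 stayed within the 95% interval of the reported share and 56 moved beyond it. Among these alternatives none of the gained shares of H2A.Zac fell below 50%. In parts of the deserts it did, at 49.6% both at 200 to 500 kb and inside protein-coding genes, against 54.1% outside such genes. Whether H2A.Z gains outnumbered its losses depended on the definition: the reported 49.7% became 47.3% at 100 kb, 58.1% at 500 kb, 52.9% with the TSSs of all transcripts and 59.5% at ratios of at least 10. For H2A.Zac 53.0% became 51.5%, 58.8% and 55.8% under the first 3 of these, and 55.7% by base pairs. The causes were not tested.

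The desert shares of H2A.Z and H2A.Zac regions, 9.13% and 8.58%, were 18.1% and 17.5% at 100 kb, 3.54% and 3.15% at 500 kb, 6.52% and 5.83% with all transcripts, 9.38% and 9.01% after merging regions within 1 kb, 8.12% and 7.64% with at least 50% unique words, 8.53% and 8.01% without deserts over 5 Mb, and 8.16% and 7.89% without the 5 deserts with the most regions; H2A.Z was 8.83% by base pairs. The changed share of H2A.Z, 39.3%, was 35.1% for regions of at least 500 bp, 36.6% by base pairs, 42.2% with unique words and 40.6% without the 5 deserts; that of H2A.Zac, 55.6%, was 57.6% merged, 58.1% by base pairs and 57.5% with unique words.

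Coverage of desert H2A.Z by H2A.Zac, 72.0%, was 73.9% at 100 kb, 70.8% at 500 kb, 77.8% from 500 bp and 70.4% when 50% had to be covered. Coverage of H2A.Zac by H2A.Z, 52.6%, was 54.1% at 500 kb, 54.4% with all transcripts, when merged and outside gene bodies, 56.3% from 500 bp, 54.9% at 1 bp, 46.4% at 50%, 51.1% with unique words and 50.8% without the 5 deserts. The share inside protein-coding genes, 22.5%, was 29.6%, 11.5% and 4.54% at 100 kb, at 500 kb and with all transcripts, 25.1% with unique words, and 24.2% and 24.8% without the large or the 5 deserts. The share near a non-coding TSS, 10.3%, was 12.3% at 500 kb, 11.9% with all transcripts, 9.14% with unique words and 9.03% without large deserts. The share of gained H2A.Zac regions at ratios of at least 20, 19.8%, was 22.6% with all transcripts. In 200-bp windows GATA was found in 12.4% and AP-1 in 6.68% of desert regions, against 18.0% and 10.3%.

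Leaving out 1 chromosome gave ranges of 8.60% to 9.61% and 8.16% to 8.99% for the desert shares of H2A.Z and H2A.Zac, 48.3% to 50.7% and 52.3% to 53.7% for the gained shares, 38.7% to 40.0% and 55.3% to 56.0% for the changed shares, 71.5% to 72.5% and 51.7% to 53.1% for coverage by the other mark, 21.6% to 23.6% inside protein-coding genes, 9.60% to 10.8% near a non-coding TSS, and 18.0% to 20.4% of gained and 15.9% to 17.8% of lost H2A.Zac regions at ratios of at least 20. Chromosome 7 gave the lowest H2A.Z gained share and the lowest strong gained share when left out.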
